A study of Mus musculus with 2 samples.

Results

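The genes described here are 6 chemokines of the CC family that attract monocytes and eosinophils (Ccl2, Ccl7, Ccl8, Ccl12, Ccl11 and Ccl24) and the receptors Ccr2 and Ccr3. They were taken by name, and every probe set of the array that the platform annotation ties to exactly 1 of these symbols was taken. This gave 11 probe sets for 8 genes, among 34945 probe sets with 1 gene symbol for 18193 genes. Ccr2 was represented by 4 probe sets and each of the other genes by 1.

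The samples were 2 islet grafts, each hybridized to 1 GeneChip array. Each recipient had received 50 islets of wild type C57BL/6 donors beneath the capsule of its left kidney, and the grafts were taken at 6 hours. The recipient of the first, called the WT graft here, was a normoglycemic wild type C57BL/6 male. That of the second, called the Akita graft, was a hyperglycemic male heterozygous for Akita, a missense mutation of Ins2 that leads to insulin deficiency. The Akita mice of the study were of the C57BL/6J strain. Akita recipients of the transplantation experiments were 10 to 12 weeks old, but the age of the mice used for the arrays is not given separately, nor is how many mice each sample stands for. The labels name no insulin treatment. Blood glucose and genotype of the recipient cannot be told apart. With 1 array per condition there was no replicate error, and no difference could be tested.

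CC chemokines are small secreted proteins that guide leukocytes along a gradient by binding receptors coupled to G proteins. Ccr2 is carried by inflammatory monocytes, and its ligands call these cells out of the bone marrow and into inflamed tissue. Ccr3 is the receptor of the eotaxins and is carried mainly by eosinophils. In islet transplantation, Ccl2 is known as a product of the islet cells themselves as well as of macrophages, endothelium and kidney tubules.

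Values are MAS5 signals on a linear scale, and the mean signal was equal on both arrays, at 500.004, once the lowest and highest 2% of probe sets were left out. A signal was regarded as low when it did not reach the array median (82.9 for the WT graft and 91.5 for the Akita graft), a limit set here. Both samples held RNA of the host kidney as well as of the islets, since Ins2 had signals of 68738 and 88302 and Kap, a gene of the proximal tubule, 89517 and 128500 in the WT and the Akita graft. The 18 hybridization controls were 1.70-fold to 2.24-fold brighter for the Akita graft. The 3' over 5' ratio of the control probe sets, which rises as RNA degrades, was 3.54 (WT) and 3.99 (Akita) for Actb, against 1.30 (WT) and 1.76 (Akita) for Gapdh. The part of these differences in the results was not tested. Where signals are given in pairs, that of the WT graft comes first. In a mixed sample of this kind, more cells of a type and more RNA per cell cannot be told apart.

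The main Ccr2 ligands were higher in the Akita graft. Ccl2, also known as monocyte chemoattractant protein 1, had a signal of 217 in the WT graft and 1522 in the Akita graft, a ratio of 7.01. Ccl7, which binds Ccr2 and Ccr3 as well as Ccr1, had signals of 106 and 985, a ratio of 9.28. Neither gene was low in either sample, although Ccl7 in the WT graft lay close to it, at the 55.3rd percentile of all probe sets. In the Akita graft, Ccl2 was at the 89.7th percentile and Ccl7 at the 85.5th.

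How far ratios differ between probe sets of the same gene was read from genes with more than 1 probe set, taken in pairs. Pairs were grouped by the geometric mean signal of their dimmer probe set over both grafts. The SD of the ratio was 1.27-fold among 1998 pairs at 256 to 1024. The log2 ratios of Ccl2 (2.81) and Ccl7 (3.21) were 8.28 and 9.47 times this SD (0.34 on the log2 scale). The SD was 1.55-fold among 3095 pairs at 64 to 256 and 2.93-fold among 2730 pairs at 16 to 64. Below 16 it was 4.03-fold among 2360 pairs. This is a spread between probe sets and not an error between animals or arrays. Technical differences that both probe sets of a gene share do not enter it. The brighter probe set of a pair may scatter less, so the SD at a given signal may be understated.

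**Figure D1:**
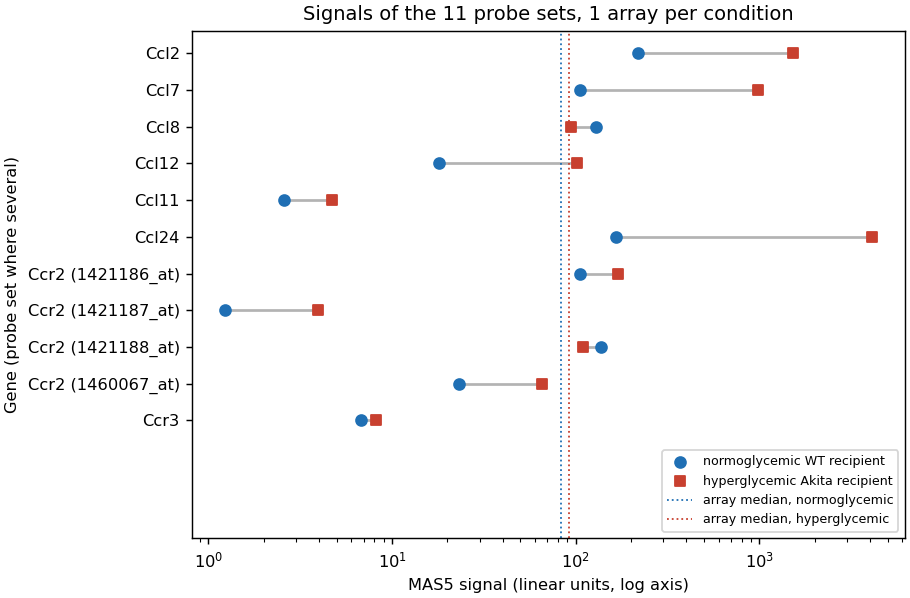
MAS5 signal (x axis, log scale) of each of the 11 probe sets in the graft of the normoglycemic WT recipient (blue circles) and of the hyperglycemic Akita recipient (red squares), 1 array each, with grey lines joining both values and dotted lines at the array medians. Ccl2, Ccl7 and Ccl24 lie right of the medians in both samples, with the Akita value far to the right of the WT value, whereas Ccl11, Ccr3 and 2 probe sets of Ccr2 lie left of both medians in both samples.

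The remaining monocyte chemoattractant proteins, Ccl12 and Ccl8, were near or below the limit of low signals. Ccl12, or monocyte chemoattractant protein 5, a further Ccr2 ligand of the mouse, had a signal of 18.1 in the WT graft and 101 in the Akita graft. The measured ratio was 5.61, but as the lower signal was low, only a ratio of at least 1.22 can be given, and the spread between probe sets at this signal was 2.93-fold. Ccl8, or monocyte chemoattractant protein 2, which in the mouse acts mainly through Ccr8, had signals of 128 and 93.9 and was thus 1.37-fold lower in the Akita graft. This difference was smaller than the 1.55-fold spread between probe sets at this signal. Ccl8 was the only 1 of the 6 ligands with a ratio below 1.

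Ccl12 and Ccl8 lie directly beside each other in the RefSeq gene order of chromosome 11, in one row with Ccl2, Ccl7 and Ccl11. Their promoters, the only ones of the ligands at hand, are shown to set these neighbours side by side. RefSeq promoter windows of GRCm38.p6, from 250 bases before to 50 bases after the start, were at hand for 4 of the 8 genes (Ccl12, Ccl8, Ccr2 and Ccr3). That of Ccl12 is chr11:82101595-82101894 and that of Ccl8 chr11:82114935-82115234, both on the plus strand, and capitals mark the TATA box.
Ccl12: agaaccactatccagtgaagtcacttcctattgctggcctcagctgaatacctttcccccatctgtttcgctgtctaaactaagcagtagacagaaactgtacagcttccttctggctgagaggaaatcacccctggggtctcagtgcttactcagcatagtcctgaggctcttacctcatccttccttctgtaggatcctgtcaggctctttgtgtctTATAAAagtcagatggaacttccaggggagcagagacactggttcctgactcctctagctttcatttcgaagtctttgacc
Ccl8: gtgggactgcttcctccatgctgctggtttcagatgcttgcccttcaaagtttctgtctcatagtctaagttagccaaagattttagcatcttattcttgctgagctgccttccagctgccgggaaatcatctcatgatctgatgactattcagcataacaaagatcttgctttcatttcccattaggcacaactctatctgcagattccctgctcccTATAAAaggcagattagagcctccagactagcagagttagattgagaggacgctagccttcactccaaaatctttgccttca

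The TATA box (TATAAA) began at base -31 of Ccl12 and at base -32 of Ccl8, counted back from the start, and was in neither receptor promoter. It was searched on both strands, like the other motifs, after the sequences had been seen, and 13.6% of all 32851 windows held it. Sites for NF-kB, which drives Ccl2 in inflammation, for AP-1 (TGANTCA) and for STAT6 (TTCNNNNGAA), the factor of interleukin 4 and 13 signalling, were in neither ligand window nor in that of Ccr2. Among all windows, 8.46% held the first, 7.81% the second and 6.95% the third. The window of Ccr3, chr9:124021721-124022020, held an NF-kB match (GGAAATTCCC) from base -179 and an AP-1 match (TGAGTCA) from base -144. These are matches of letters only, and regions farther from the start were not searched.

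Of the eotaxins, Ccl24 was higher in the Akita graft and Ccl11 was low in both. Ccl24, or eotaxin 2, a Ccr3 ligand made chiefly by macrophages, had a signal of 166 in the WT graft and 4113 in the Akita graft, a ratio of 24.8 and the highest among the 11 probe sets. Only 4 of the 17811 probe sets that were low in neither graft had a ratio as high or higher, Ccl24 included, against 53 for Ccl2 and 32 for Ccl7. Ccl24 was at the 95.6th percentile of all probe sets in the Akita graft. Ccl11, or eotaxin 1, made mainly by fibroblasts and epithelium, had signals of 2.58 and 4.74, both low, so no fold is given. It lay at the 2.78th and 7.19th percentile. The eotaxins thus differed from each other in whether any signal above the limit was seen.

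Neither receptor showed a ratio over 2 on a probe set with signals above the limit. The probe sets 1421186_at and 1421188_at of Ccr2 were at or above the medians in both samples and went in opposite directions. The former had signals of 105 and 169 (a ratio of 1.60), and the latter 137 and 109 (1.25-fold lower in the Akita graft). The former differed by slightly more and the latter by less than the 1.55-fold spread between probe sets at this signal. The other probe sets of Ccr2 were low in both grafts, 1460067_at with 23.2 and 65.8 and 1421187_at with 1.23 and 3.93. The 4 probe sets therefore gave no single direction for Ccr2. Ccr3, with signals of 6.79 and 8.22, was low in both grafts.

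Over all 11 probe sets, 6 had a ratio above 2, beside 16.0% of all probe sets with 1 symbol, and 4 had a ratio above 5, beside 6.34%. None was over 2-fold lower (0 of 11), beside 13.8% of all. The 4 probe sets above 5 were those of Ccl2, Ccl7, Ccl12 and Ccl24, and the other 2 above 2 were the dim Ccr2 probe sets. The median log2 ratio was 1.50 over the 11 probe sets, 2.65 over the 6 of the ligands and 0.68 over the 5 of the receptors, against -0.01 over all probe sets. With low signals raised to the array median (and a log2 ratio of 0 where both were low), 3 of 11 were above 2 and above 5, beside 2.61% and 0.315% of all, and none was over 2-fold lower, beside 1.36%. The median log2 ratio of the 11 was then 0.0. Both signals were at or above the medians in 6 of the 11 probe sets, of which 3 were above 5. In this set 3.35% of all probe sets were above 2, 0.466% above 5 and 1.88% over 2-fold lower. Those 3 were Ccl2, Ccl7 and Ccl24.

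**Figure D2:**
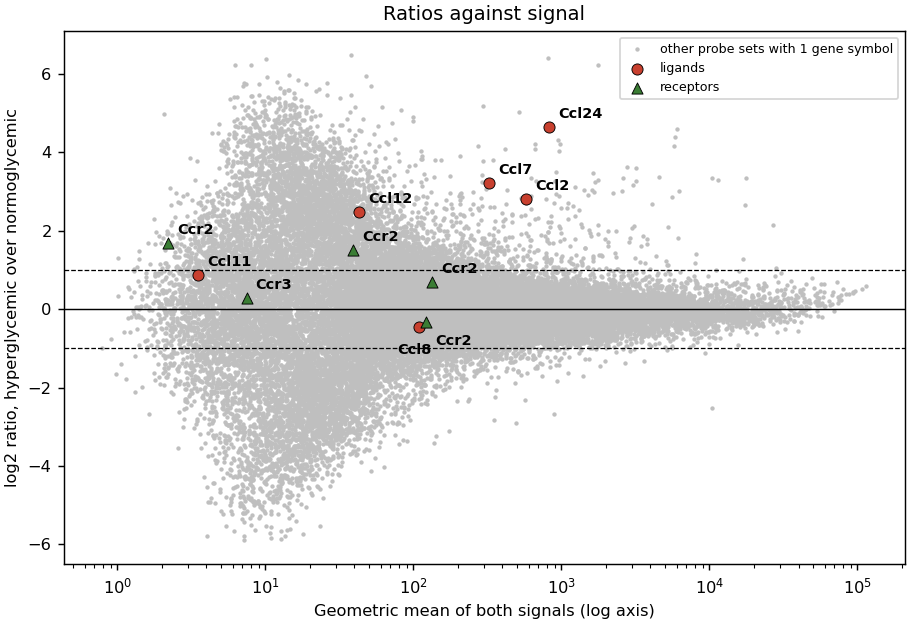
Log2 ratio of the hyperglycemic over the normoglycemic sample (y axis) against the geometric mean of both signals (x axis, log scale) for the 11 probe sets (ligands, red circles; receptors, green triangles) and all other probe sets with 1 gene symbol (grey); dashed lines mark 2-fold. The grey cloud widens at low signals, where Ccl11, Ccl12, Ccr3 and 2 probe sets of Ccr2 lie within it, whereas Ccl2 (2.81), Ccl7 (3.21) and Ccl24 (4.64) lie above the dense part of it at signals over 256.

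The order of the genes along the chromosomes was set beside their ratios. In the row on chromosome 11, the ratios were 7.01 (Ccl2), 9.28 (Ccl7), at least 1.22 (Ccl12, low in the WT graft) and 0.731 (Ccl8), and Ccl11 was low in both grafts. The next gene, Ccl1, a ligand of Ccr8, was low in both grafts with 14.0 and 18.9. On the other side of Ccl2, 1700071K01Rik had signals of 22.8 and 159.6. Its measured ratio of 6.99 was close to that of Ccl2, but as its WT signal was low, only a ratio of at least 1.92 can be given. On chromosome 5, Rhbdd2, which follows Ccl24, had signals of 329 and 182 and was thus lower in the Akita graft, where Ccl24 was higher. On chromosome 9, Ccr1l1 stands before Ccr3 and Ccr2, and its signals of 53.6 and 64.3 were low as well.

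Among the other CC chemokines, 6 of 10 genes had a ratio above 2 in the Akita graft and 0 showed a more than 2-fold lower signal, with a median log2 ratio of 1.02. For all 18193 genes, each at its brightest probe set as in the lists, 13.6% had a ratio above 2, 5.26% one above 5 and 11.7% were more than 2-fold lower, and the median was -0.04. With low signals raised, the share was taken over all probe sets only and not by gene. It was 2.61% above 2 and 1.36% over 2-fold lower. Ccl9, a chemokine of myeloid cells that binds Ccr1, had signals of 1031 and 9900 at its brightest probe set. The ratio there was 9.60, close to that of Ccl7, but the study lists a further entry of Ccl9 with a higher ratio. Ccl27a, a chemokine of skin, had 230 and 174. The further Ccr3 ligands Ccl5 and Ccl28 had ratios of 1.89 (194 and 367) and 0.95 (364 and 347). Both remained within 2-fold, whereas Ccl7 and Ccl24, which bind the same receptor, did not.

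Of 9 other CC chemokine receptors, 4 had a ratio above 2 and 1 showed a more than 2-fold lower signal, but 6 of the 9 were low in both grafts, and with low signals raised these counts were 3 and 0. Ccr1, which is carried by monocytes, macrophages and neutrophils and also binds Ccl7, had signals of 290 and 2799 (a ratio of 9.64). Ccr1 was thus far above the spread between probe sets while Ccr2 was not. Ccrl2, an atypical receptor that presents chemerin, had signals of 148 and 326. Of the 4 atypical receptors that take up chemokines without signalling, Ackr3 had 4517 and 4054 and Ackr4 195 and 351. Ackr2, the scavenger of inflammatory CC chemokines, had 83.0 and 103, just above the medians, and was named after its values were seen.

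Of 12 genes of signalling below these receptors, 4 had a ratio above 2 and 0 showed a more than 2-fold lower signal (median log2 ratio 0.47). Arrb2, a beta-arrestin that ends receptor signalling, had signals of 225 and 673, and Gnai3, a subunit of the inhibitory G protein, 4367 and 5665. Nup85, which encodes a nucleoporin that also binds Ccr2, had 475 and 341.

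Some cytokines known to induce the Ccr2 ligands were higher in the Akita graft. Of 10 such genes, 4 had a ratio above 2 and 1 showed a more than 2-fold lower signal, and 4 were low in both grafts. With low signals raised, 2 were above 2 and 0 more than 2-fold lower. Il6 had signals of 498 and 2472 (a ratio of 4.96), below the ratio of Ccl2, and Pdgfb, a growth factor of mesenchymal cells, 915 and 704. Tnf, with 22.2 and 68.7, and Ifng, with 7.70 and 5.58, were low in both and were named after their values were seen. Of 9 genes of NF-kB and its early targets, 1 was over 2-fold higher (0 with low signals raised) and 8 were within 2-fold (median log2 ratio 0.91). Nfkbia, the inhibitor that NF-kB itself induces, had signals of 11351 and 22150, and Nfkbiz had 1599 and 3129, both just under 2-fold. Vcam1, an adhesion molecule for monocytes, had 283 and 258.

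Interleukins 4 and 13 are known to induce Ccl24 in macrophages and Ccl11 in fibroblasts. Of 14 genes for type 2 cytokines, their receptors and targets, 6 were over 2-fold higher and 2 were lower by as much (3 and 0 with low signals raised), and 6 were low in both grafts. Arg1, the arginase of alternatively activated macrophages, had signals of 1289 and 26962, a ratio of 20.9 and close to that of Ccl24. Il33, an alarmin upstream of type 2 cytokines, had 585 and 415. The cytokines Il4 (44.7 and 51.1), Il13 (18.9 and 16.9) and Il5 (26.5 and 3.57) were low in both grafts. These 3 were named after their values were seen.

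Macrophage markers were higher in the Akita graft, as were Ccl2, Ccl7 and Ccl24. Of 12 macrophage genes, 10 had a ratio above 2, 8 of these a ratio above 5, and 0 were more than 2-fold lower, with a median of 6.45-fold. Their summed signal was 12569 in the WT graft and 87963 in the Akita graft. Lyz2, which encodes lysozyme, had 5539 and 55987, whereas Mertk, a receptor for the uptake of dead cells, had 1521 and 1497. Of 10 genes known from peritoneal macrophages, chosen with their values known, 9 were over 2-fold higher, and the sum was 7306 and 69395. Alox15, an arachidonate lipoxygenase of these cells and of eosinophils, had signals of 90.0 and 2936. Saa3, a serum amyloid A protein, had 3265 and 33313, and Icam2, an adhesion molecule, 348 and 754. Of 10 monocyte genes, 6 were over 2-fold higher (5 with low signals raised), and the sum was 2880 and 6711. Ifitm6 had signals of 150 and 1233 and Plac8 1748 and 2103, but Spn, or CD43, was 1.65-fold lower with 179 and 108. Cx3cr1, the fractalkine receptor, which was named after its values were seen, was lower as well, with 131 and 97.6. The part of these cells in the chemokine results was not tested.

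Beside the median macrophage gene, the ratios of Ccl2 and Ccl7 were 0.12 and 0.52 higher on the log2 scale, and that of Ccl24 was 1.95 higher. Ccl2 and Ccl7 thus differed from the median macrophage gene by less than Ccl24 did. The brighter Ccr2 probe sets lay at -2.01 and -3.01 relative to it, and Ccl8 at -3.14. The median of all probe sets with 1 symbol lay at -2.70 on the same scale. This setting was added after the values had been seen.

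Eosinophil markers gave no signal at or above the limit in the WT graft, although Ccl24 was the most changed ligand. Of 10 listed genes, 5 had a probe set with 1 symbol, and 4 of these were low in both grafts. As measured, 3 of the 5 had a ratio above 2 and 2 were more than 2-fold lower (0 and 0 with low signals raised). As none was at or above the limit in both grafts, all 5 are named. Epx, the eosinophil peroxidase, had signals of 7.67 and 15.5, and Prg3 had 2.95 and 8.94. Prg2, the major basic protein, had 43.9 and 6.46, and Siglecf, a surface lectin of mouse eosinophils, 18.1 and 3.91. Il5ra, a receptor chain for interleukin 5 that B cells also carry, had 46.6 and 106 and was the only one at or above the median, in the Akita graft. The summed signal was 119 and 141. Ccr3 (6.79 and 8.22) was low as well.

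Other cell types differed in direction. Of 9 neutrophil genes, 5 were over 2-fold higher (3 with low signals raised), such as S100a9 at 2536 and 10930, and the sum was 4528 and 17371. Mpo, the myeloperoxidase, had signals of 140.4 and 118. Of 8 mast cell genes, 7 were over 2-fold higher (3 with low signals raised), with sums of 382 and 2132, and Cpa3, a carboxypeptidase of their granules, had 53.2 and 798. No mast cell gene reached the limit in both grafts. Of 8 T and NK cell genes, 7 were low in both grafts, and the sum was 279.8 and 311. Of 12 genes of fibroblasts and mesothelium, 1 had a ratio above 2 and 4 showed a more than 2-fold lower signal (0 and 3 with low signals raised), and the sum was 3554 and 2144. Col1a2, a collagen chain, had signals of 677 and 204, Pdgfrb, a receptor for platelet-derived growth factor, 1205 and 456, and Krt19, a keratin, 92.4 and 159.8. Ccl11, a product of fibroblasts, was low in both grafts. Of 10 endothelial genes, 0 had a ratio above 2 and 4 showed a more than 2-fold lower signal (0 and 1 with low signals raised), and the sum was 4999 and 3220. The VEGF receptors Kdr and Flt1 had 487 and 274, and 1047 and 915, and Plvap, a protein of fenestrated endothelium, had 1187 and 709.6. All 7 islet genes were at or above the medians in both grafts (summed signal 130865 and 196726), and 3 of them were over 2-fold higher. Sst, or somatostatin, had signals of 1408 and 3806, and Pdx1, a transcription factor of beta cells, 181 and 136. Of 8 kidney tubule genes, 7 were within 2-fold, and Slc12a1, the cotransporter of the thick ascending limb, had 3035 and 1103.

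**Figure D3:**
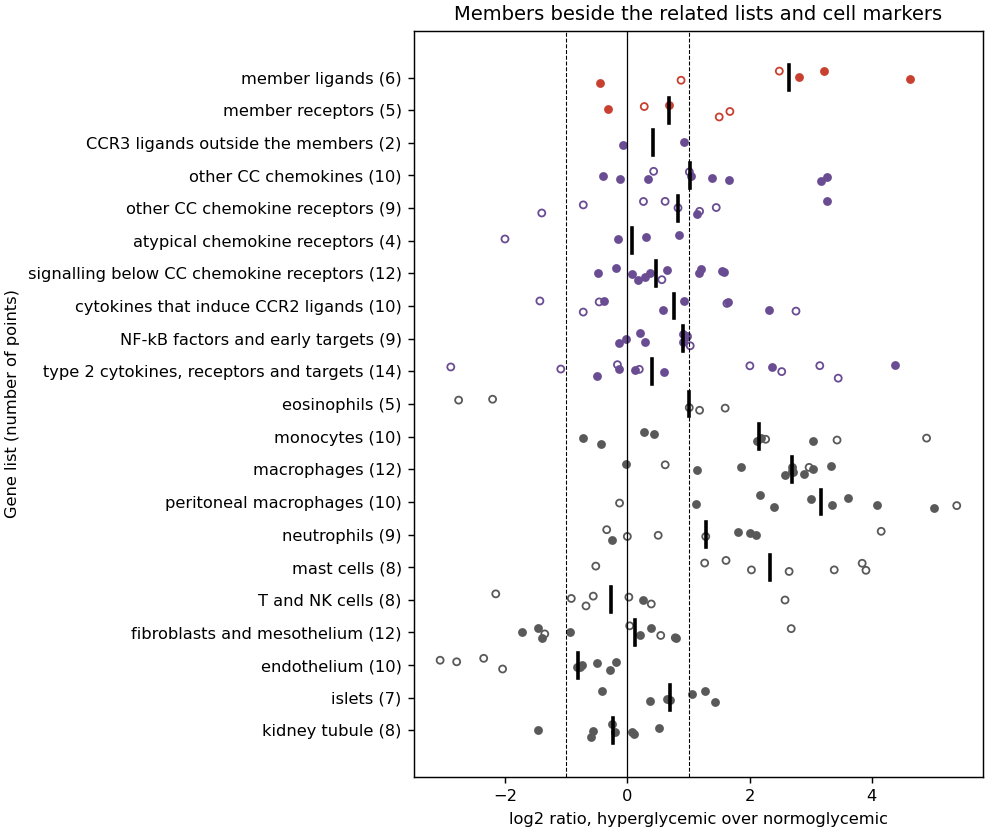
Log2 ratio of the hyperglycemic over the normoglycemic sample for the 6 ligand and 5 receptor probe sets (red), 8 lists of related genes (purple) and 11 lists of cell markers (grey), 1 point per gene except in the top rows. Filled points are low in neither sample and open points in at least 1. Bars in black show medians, and 2-fold is marked by dashed lines. As measured, the ligands had a median of 2.65, near the 2.69 of the macrophages, and the receptors (0.68) were below both. The ligand value rests in part on Ccl12 (2.49), which was low in the normoglycemic sample. With low signals raised, Ccl12 was at 0.29, whereas the macrophage median stayed at 2.69.

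The genes closest in ratio to Ccl2 and Ccl24 were sought among 6699 genes whose signals reached the 75th percentile of the array in each graft. With 2 samples, likeness is no more than the difference of log2 ratios. For Ccl2 these were Serpinb2, an inhibitor of plasminogen activators (2089 and 15163, a difference of 0.05), C1qa, a subunit of C1q (433 and 2829, 0.10), and Fermt3, an integrin activator of blood cells (549 and 4163, 0.11). For Ccl24 they were Slpi, a protease inhibitor (1226 and 29631, 0.04), Arg1 (0.25) and Wfdc17 (1363 and 24612, 0.46). 

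Ccl2, Ccl7 and Ccl24 remained over 2-fold higher in the Akita graft under all 11 processing alternatives fixed for these arrays. Several of these could not change a ratio whose signals were both above the medians. They were the filters, 1 probe set per gene, no shared probe sets and the floors up to the median. Only the scalings, the floor at the 75th percentile and the added array median could move the ratios of Ccl2, Ccl7 and Ccl24. Their ratios ranged from 3.77 to 7.26 for Ccl2, from 2.44 to 9.41 for Ccl7 and from 10.2 to 25.8 for Ccl24, with the lowest values where signals were raised to the 75th percentile. For Ccl12 the log2 ratio ranged from 0.0 to 2.49.

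**Figure D4:**
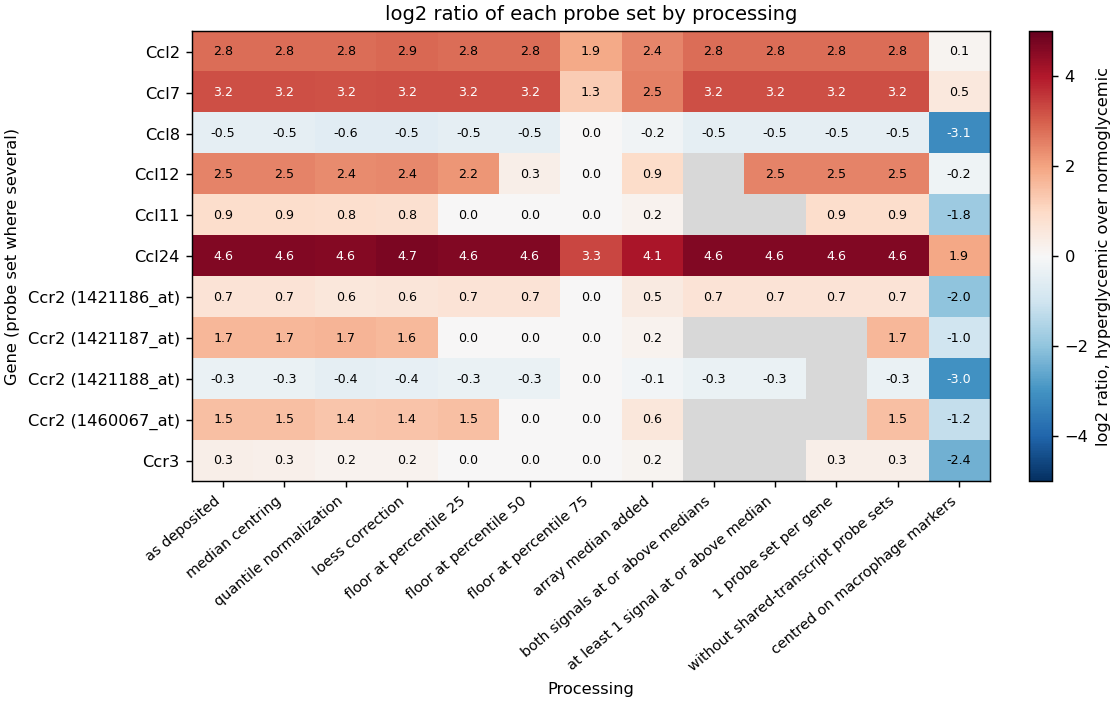
Log2 ratio of the hyperglycemic over the normoglycemic sample for each of the 11 probe sets (rows) under each processing (columns), as printed in the cells and coloured from blue (lower) to red (higher); grey cells were left out by a filter. Ccl2, Ccl7 and Ccl24 stay red in every column up to the last, which centres on the macrophage markers, where Ccl2 (0.12) and Ccl7 (0.52) are near 0.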

How the data were processed

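Each of the 2 graft RNA samples was measured on its own MOE430 2.0 array. The intensity table that the authors deposited holds linear MAS5 signals of 45101 probe sets, including 64 controls. The version of MAS5, which the submitters' processing notes name, the settings of the Subio Platform, named in the methods, and the genome build were not stated. Precision is limited by the number of arrays, 1 per condition, and no test was possible.

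Gene symbols came from the platform annotation (932 probe sets with several symbols and 9160 with none were not named), and all 11 probe sets of the members matched RefSeq genes of GRCm38.p6 with 0 symbols changed. Ratios are of the Akita over the WT graft, without further scaling. The members, the 19 lists and the limits were chosen with earlier results of these data known. Of each list the text names the highest and the lowest ratio among genes low in neither graft, and the gene with the highest signal, where the list had such genes.

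Alternatives were median centring, quantile normalization, loess (span 0.3, 3 iterations), floors at the 25th percentile, the median and the 75th percentile, the array median added, filters on low signals, 1 probe set per gene, and no probe sets shared by several transcripts. A value or count was regarded as unchanged within 1.5-fold. The counts and scalings were tested on simulated data. Python 3.11.15, numpy 2.4.6, pandas 2.3.3, statsmodels 0.14.6 and matplotlib 3.10.9 were used.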

Additional observations from a re-analysis of the deposited data

How the results depend on the processing

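Of 109 values of single probe sets under the 11 alternatives, 90 stayed within 1.5-fold, 19 moved further and 0 changed sign. Filters, 1 probe set per gene and no shared probe sets only keep or drop a probe set. Values under these were thus unchanged by design, and they are counted among the 90. All 33 under median centring, quantile normalization and loess stayed within 1.5-fold. The 6 probe sets over 2-fold higher became 3 with low signals raised to the median, with a floor at the 75th percentile, with the array median added, and with both signals required at or above the medians. The shares of all probe sets with 1 symbol above 2 were then 2.61%, 0.624%, 2.61% and 3.35% in this order, against 16.0% as deposited. The 4 over 5-fold higher became 1 with the floor at the 75th percentile, that of Ccl24. The share of all above 5 was then 0.137%, against 6.34% as deposited. The median log2 ratio of 1.50 became 0.68 with a floor at the 25th percentile, 0.0 with a floor at the median or the 75th percentile, 0.47 with the array median added, and 2.49 with at least 1 signal at or above its median. The 0 probe sets over 2-fold lower stayed at 0 under all 11.

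Centring on the median of the 12 macrophage genes, added after the data were seen, gave 1 probe set over 2-fold higher (Ccl24), 0 over 5-fold higher, 7 over 2-fold lower and a median of -1.19. Of all probe sets with 1 symbol, 1.80%, 0.235% and 90.3% were past these limits under the same centring, with a median of -2.70. The 7 lower probe sets thus go with a shift of the whole array. There the log2 ratio turned from above to below 0 for Ccl12 (-0.20), Ccl11 (-1.81), Ccr3 (-2.41), 1421186_at of Ccr2 (-2.01) and the dim Ccr2 probe sets (-1.01 and -1.19). Dim probe sets limit what can be said of Ccl11, Ccl12 and Ccr3, and no alternative stands in for a second animal.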
